A study of Mus musculus with 6 samples.

Results

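Proprotein convertases and the Nodal pathway genes were followed as a set of 9 genes of the 23290 entries in the authors' table of mouse embryonic hearts at E10.5. The genes were found by matching the RefSeq identifiers of the table to the symbols Pcsk6, Pcsk5, Furin, Pcsk7, Tdgf1, Cfc1, Nodal, Lefty1 and Lefty2, and each had 1 entry. They were chosen by the fold changes of this same comparison, in which Pcsk6 and Tdgf1 went in opposite directions, so their folds, intervals and q-values are a description and not independent evidence. Of the 9 genes, 8 were tested by the authors and Nodal was marked as too low for a test.

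RNA came from whole hearts of 6 embryos on a C57BL/6 background. The 3 control hearts were Nkx2-5+/+ with 1 floxed and 1 wild-type Casz1 allele (Casz1f/+), and carried no Cre. The 3 mutant hearts were homozygous for floxed Casz1 (Casz1f/f) and carried Cre recombinase at 1 Nkx2-5 allele (Nkx2-5Cre/+), so heart cells that never expressed Cre keep Casz1. Controls and mutants thus differ at Nkx2-5 as well as at Casz1, and the effects of the Cre-bearing Nkx2-5 allele and of Casz1 loss cannot be told apart. Casz1, the targeted zinc finger factor, stood at 6.61 and 4.68 FPKM and Nkx2-5, the cardiac homeodomain factor, at 143.0 and 82.9 FPKM for controls and mutants in the authors' deposited table, with q = 1.00 and 0.536, so neither passed the threshold.

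Nodal is a ligand of the TGF-beta family that is made as a precursor and becomes active once a proprotein convertase, a subtilisin-like protease, cuts off its prodomain. It signals through activin receptors together with a co-receptor of the EGF-CFC class, Cripto (Tdgf1) or Cryptic (Cfc1), and through SMAD2, SMAD3 and FOXH1, and it induces its own secreted inhibitors Lefty1 and Lefty2. In the early embryo the pathway sets the left-right axis along which the heart loops. Convertases also process many other precursors in the heart, such as bone morphogenetic proteins and corin, the protease that matures natriuretic peptides.

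Of the proprotein convertases Pcsk6 was 3.80-fold lower in mutant hearts, while of the co-receptors Tdgf1 was 7.46-fold higher. Both passed the authors' threshold of q under 0.05, 1 lower and 1 higher, and the other 6 tested genes did not. Over all 15387 tested entries 0.422% passed that threshold, 0.305% with a higher and 0.117% with a lower level in mutant hearts. Since the same comparison was used to choose the genes, nothing is read from their count. The 2 start regions differ in base composition, which was not used in the choice. They are shown from 250 bases before to 50 bases after the start site, 5′ to 3′ on the strand of the gene, from RefSeq on GRCm38.p6, the assembly that mm10 names, with every CpG dinucleotide in capitals. The Pcsk6 region lies at chr7:65861886-65862185 on the plus strand and the Tdgf1 region at chr9:110946109-110946408 on the minus strand.
Pcsk6: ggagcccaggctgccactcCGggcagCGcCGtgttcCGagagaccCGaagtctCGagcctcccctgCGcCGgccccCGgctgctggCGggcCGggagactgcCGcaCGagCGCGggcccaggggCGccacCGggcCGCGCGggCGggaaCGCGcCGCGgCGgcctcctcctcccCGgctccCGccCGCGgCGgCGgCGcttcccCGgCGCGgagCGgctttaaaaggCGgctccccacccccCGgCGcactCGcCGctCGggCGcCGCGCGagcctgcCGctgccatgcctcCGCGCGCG
Tdgf1: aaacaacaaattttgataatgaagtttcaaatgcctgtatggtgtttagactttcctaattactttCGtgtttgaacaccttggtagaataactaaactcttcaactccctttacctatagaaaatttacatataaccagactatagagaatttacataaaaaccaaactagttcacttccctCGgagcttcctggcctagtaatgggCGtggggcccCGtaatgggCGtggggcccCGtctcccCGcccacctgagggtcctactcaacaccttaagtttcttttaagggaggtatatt

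The Pcsk6 start region was 81.7% G and C with 52 CpG dinucleotides, more CpGs than 99.4% of 32851 start regions of that length in the RefSeq table. The Tdgf1 region was 41.7% G and C with 7 CpGs, and 13.4% of start regions had a lower G and C content. The medians over all regions were 52.7% and 7 CpGs. The Tdgf1 region also holds a stretch of 19 bases in 2 adjoining copies, which begin 50 and 31 bases before the start site. It is printed here in capitals because it is the longest exact repeat in that region whose copies do not overlap.
Tdgf1 repeat: GTAATGGGCGTGGGGCCCC
A repeat of that kind at least as long was found in 1.48% of all start regions. Among the other genes with a start region in the sequence table, that of Pcsk5 held 22 CpGs, Pcsk7 41, Cfc1 2 and Nodal 5, while Furin has 2 start regions with 7 and 51. These are features of the sequence, and the table holds no measurement of binding or methylation there.

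Short motifs for factors of heart and Nodal signalling were searched on both strands. The SMAD element CAGAC was found 1 time in the Tdgf1 region and 0 times in that of Pcsk6, and it occurs in 49.6% of all start regions. The GC box GGGCGG, bound by Sp and Klf factors, was found 2 times at Pcsk6 and 1 time at Tdgf1, against 35.7% of regions with at least 1. The NK2 homeobox letters TNAAGTG (11.5% of regions), the FOXH1 letters AATNCACA (3.60%), the T-box letters TCACACCT (1.28%), the GATA letters AGATAA (11.2%) and the TATA letters TATAAA (13.6%) were in neither region. None of the searched motifs contains another, and the absence of these letters concerns these 300 bases only. Other spellings of the same sites were not searched, so their presence in either region is left open.

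FPKM counts fragments scaled by transcript length and library depth, so levels can be compared between genes. The table gives 1 pooled FPKM per genotype and none per heart, so the spread between hearts, the depth of each library and any overlap of single hearts between the groups are unknown. Every FPKM, p and q in this text is from the authors' deposited table. Their test compared 3 control with 3 mutant hearts. A standard error (SE) was obtained by dividing the log2 fold change by the authors' test statistic, in absolute size, and the 95% intervals follow from it.

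**Figure D1:**
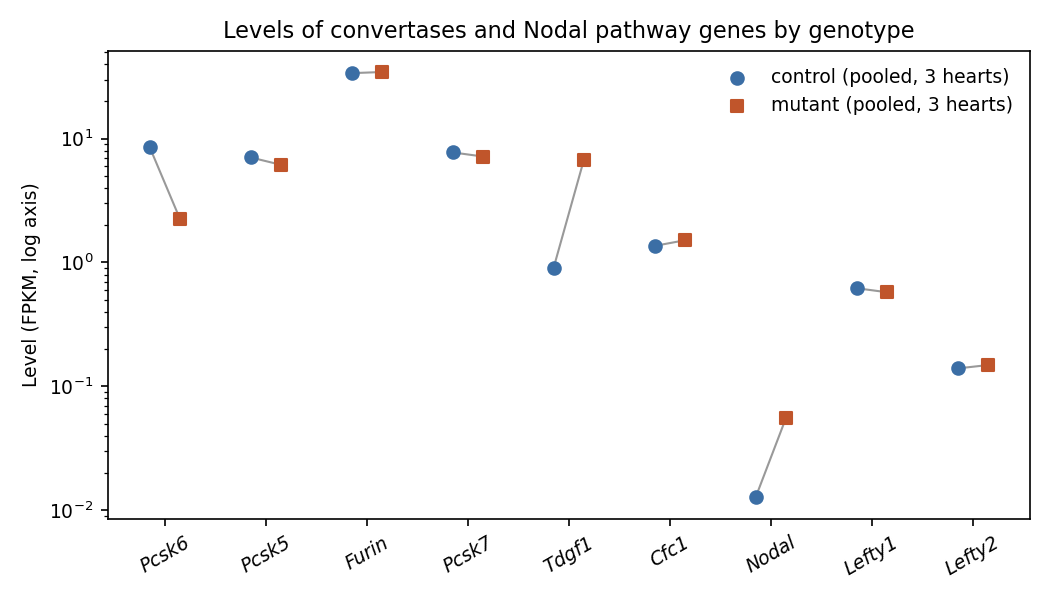
Levels of the 9 genes as FPKM on a log axis, with 1 pooled value per genotype (circles, control; squares, mutant; a line joins the values of a gene). Pcsk6 drops from 8.53 to 2.24 FPKM, Tdgf1 climbs from 0.907 to 6.76 FPKM, and Nodal sits lowest, under 0.1 FPKM in both genotypes.

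Pcsk6, also called PACE4, is a secreted convertase that binds the extracellular matrix and cuts precursors of Nodal, of Lefty and of corin. Its entry spans chromosome 7 from 65862136 to 66050386 on the plus strand in mm10. The authors' deposited table lists 8.53 FPKM for control and 2.24 FPKM for mutant hearts. Mutant hearts thus held 3.80-fold less Pcsk6 RNA (95% interval 2.43 to 5.95-fold), a log2 fold change of -1.93 (SE 0.329, authors' q = 5.9e-06). Of 12150 tested entries with at least 1 FPKM in either genotype and a finite fold, 18 had a more negative fold change. A further 74 such entries stood at 0 in 1 genotype and were not ranked. In bulk RNA, fewer cells of a type and less RNA per cell cannot be told apart.

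Furin, the ubiquitous convertase of the Golgi, was the most abundant of the 9 genes. It was listed in the authors' deposited table at 33.8 FPKM for controls and 34.5 FPKM for mutants (log2 0.03, SE 0.266, 95% interval -0.49 to 0.55). That interval leaves room for changes of up to about that size in either direction. Pcsk5, which cuts the ligand Gdf11 among others, stood at 7.05 and 6.15 FPKM for controls and mutants in the authors' deposited table (log2 -0.20, SE 0.296, 95% interval -0.78 to 0.38). In control hearts Pcsk6 and Pcsk5 were at a ratio of 1.21, and in mutant hearts at 0.365. No replicate error can be put on these ratios.

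Pcsk7, a convertase of the secretory pathway, had levels in the authors' deposited table of 7.74 FPKM for controls and 7.17 FPKM for mutants. Its log2 fold change of -0.11 carried an SE of 4.52, against a median SE of 0.317 over entries with at least 1 FPKM, and its interval ran from -8.98 to 8.76. The comparison therefore says little about Pcsk7 in either direction. Its entry shares the span on chromosome 9 from 45863691 to 45936058 with entries for Rnf214, a ring finger gene, and Tagln, the smooth muscle gene transgelin. All 3 carry that same span in the table, while RefSeq places Pcsk7 from 45906447 to 45932107 on the plus strand, and GENCODE places Rnf214 and Tagln on the minus strand. Rnf214 had an SE of 4.19, while Tagln, at 333 and 767 FPKM for controls and mutants in the authors' deposited table, had one of 0.431. Whether the library kept strand was not given in the sources used here, and reads of overlapping genes on opposite strands may have been shared.

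Summed over the 4 convertases, the level was 57.1 FPKM in controls and 50.1 FPKM in mutants. Furin made up 59.2% of that sum in control and 68.9% in mutant hearts. The share of Pcsk6 was 14.9% in control and 4.48% in mutant hearts, while Pcsk5 held 12.3% in both. Pcsk6 ranked second of the convertases in control hearts and last in mutant hearts, but Pcsk6, Pcsk7 and Pcsk5 lay close together in control hearts, between 7.05 and 8.53 FPKM, and their order there cannot be set against a spread between hearts.

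**Figure D2:**
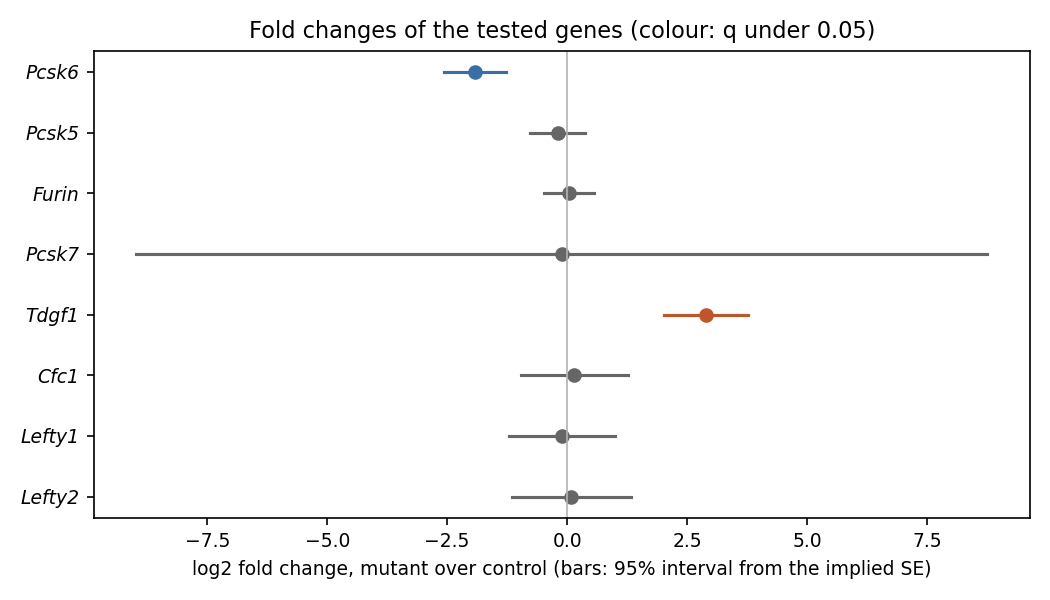
Log2 fold change of the 8 tested genes, mutant over control, as points with bars for the 95% interval from the implied SE, coloured where q was under 0.05. Pcsk6 lies at -1.93 and Tdgf1 at 2.90, the intervals of the other 6 include 0, and that of Pcsk7 spans -8.98 to 8.76.

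Tdgf1 encodes Cripto, a co-receptor held at the cell surface by a GPI anchor, which is known in the looping heart from outflow tract myocardium. Its entry spans chromosome 9 from 110939608 to 110946158 on the minus strand. It was listed in the authors' deposited table at 0.907 FPKM for controls and 6.76 FPKM for mutants, a 7.46-fold higher level (95% interval 4.05 to 13.7-fold, log2 2.90, SE 0.449, authors' q = 1.78e-07). Among the same 12150 entries with a finite fold, 11 had a larger positive fold change. The control level lies under 1 FPKM, so the size of the fold depends on a small number. Adding 1 FPKM to both levels gave a log2 fold change of 2.03. A processed pseudogene, Tdgf1-ps1, shares 12.5% of the windows of 50 bases in the longest GENCODE transcript of Tdgf1 and has 0 entries in the table, so how its reads were assigned is unknown.

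Markers of tissue next to the heart were higher in the same comparison as Tdgf1. Of 8 foregut and pharyngeal markers 7 were called higher, and their levels summed to 4.13 FPKM in controls and 20.8 FPKM in mutants, with 0 markers at 0. Of 8 outflow and second heart field markers 1 was called higher, Six2, and their sums were 104 and 108 FPKM, with 0 at 0. Heart muscle markers, which check the labelled tissue, summed to 14370 and 15780 FPKM with 0 of 8 called. That sum is weighted to Myl7, at 5080 and 7496 FPKM for controls and mutants, and the median log2 fold change of the list was -0.05. In this list 1 marker had an unadjusted p under 0.05 in the authors' test, Nppa, which was lower (log2 -0.98). Of 6 endothelial and endocardial markers 0 were called, and their sums were 209 and 180 FPKM. The part of the foregut and outflow levels in the values of Tdgf1 was not tested, and neither was it for Pcsk6. In the macrophage list 1 of 4 tested markers was called lower, Lyz2, with sums of 20.3 and 4.81 FPKM over the list and 3.45 and 2.90 FPKM without Lyz2. In the blood and platelet list 0 of 4 were called, with sums of 232 and 217 FPKM and 3 globin markers without a usable value. Their part in the values of Pcsk6 was not tested.

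Cfc1 encodes Cryptic, the other EGF-CFC co-receptor, known from the lateral plate and the node. It had levels in the authors' deposited table of 1.36 FPKM for controls and 1.51 FPKM for mutants (log2 0.15, SE 0.567, 95% interval -0.96 to 1.26). That interval leaves room for changes of any size between these bounds, which are not a limit of detection. Tdgf1 and Cfc1 together summed to 2.27 FPKM in controls and 8.28 FPKM in mutants. Tdgf1 was 40.0% of that sum in control and 81.7% in mutant hearts, and the ratio of Tdgf1 to Cfc1 went from 0.666 to 4.47.

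Nodal, the ligand, was listed in the authors' deposited table at 0.0127 FPKM for controls and 0.0553 FPKM for mutants. The authors marked the entry as too low for a test, so no fold is given. Nodal is best known from the node and the left lateral plate of earlier embryos. Its co-receptor gene Tdgf1 was therefore measured at 6.76 FPKM in mutant hearts whose Nodal entry was near 0. FPKM carries no read count here, so no upper limit can be set on Nodal.

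Lefty1 and Lefty2, secreted inhibitors that block Nodal and its co-receptors, were also low. Lefty1 stood at 0.620 and 0.575 FPKM and Lefty2 at 0.139 and 0.149 FPKM for controls and mutants in the authors' deposited table. The log2 fold changes were -0.11 (SE 0.565, 95% interval -1.22 to 1.00) for Lefty1 and 0.09 (SE 0.633, 95% interval -1.15 to 1.33) for Lefty2. These are neighbouring copies on chromosome 1, and 17.9% of the 50-base windows of the longest Lefty1 transcript also occur in Lefty2, as do 11.6% of those of Lefty2 in Lefty1. How the authors' counting shared reads between them was not tested.

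In order of level, control hearts ran from Furin through Pcsk6, Pcsk7 and Pcsk5 to Cfc1, Tdgf1, Lefty1, Lefty2 and Nodal. Mutant hearts ran from Furin through Pcsk7, Tdgf1, Pcsk5 and Pcsk6 to Cfc1, Lefty1, Lefty2 and Nodal. Tdgf1 moved from below the convertases other than Furin to among them. With 1 pooled value per genotype, no neighbours in these orders could be separated by a spread over hearts.

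The neighbours of Pcsk6 and Tdgf1 along their chromosomes were then examined. Within 500 kb of Pcsk6, 8 of 9 entries were tested and 0 were called by the authors' Cuffdiff test, with 0 at an unadjusted p under 0.05 and log2 fold changes from -0.31 to 0.29. Snrpa1, a spliceosome gene 9.95 kb beyond the Pcsk6 locus, stood at 56.4 and 63.0 FPKM for controls and mutants in the authors' deposited table, and Tm2d3 on the other side at 23.4 and 23.8 FPKM. Pcsk6 was thus the 1 entry of its region past the threshold.

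Within 500 kb of Tdgf1, 16 of 26 entries were tested and 0 were called by the authors' Cuffdiff test, while 1 had an unadjusted p under 0.05, against 3.17% of all tested entries. That entry was Lrrc2, a leucine-rich repeat gene that begins 5.39 kb from the Tdgf1 locus and is read in the opposite direction. Lrrc2 had levels in the authors' deposited table of 0.380 FPKM for controls and 0.989 FPKM for mutants (log2 1.38, SE 0.494, unadjusted p = 0.00529, q = 0.411). On the other side Als2cl, 39.1 kb away, stood at 0.287 and 0.413 FPKM (log2 0.52, SE 0.518). The sarcomere gene Myl3, 170 kb from Tdgf1, stood at 2285 and 1973 FPKM for controls and mutants in the authors' deposited table. The nearest tested entries on either side of the other 7 genes numbered 14, of which 0 were called by Cuffdiff and 0 had an unadjusted p under 0.05.

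**Figure D3:**
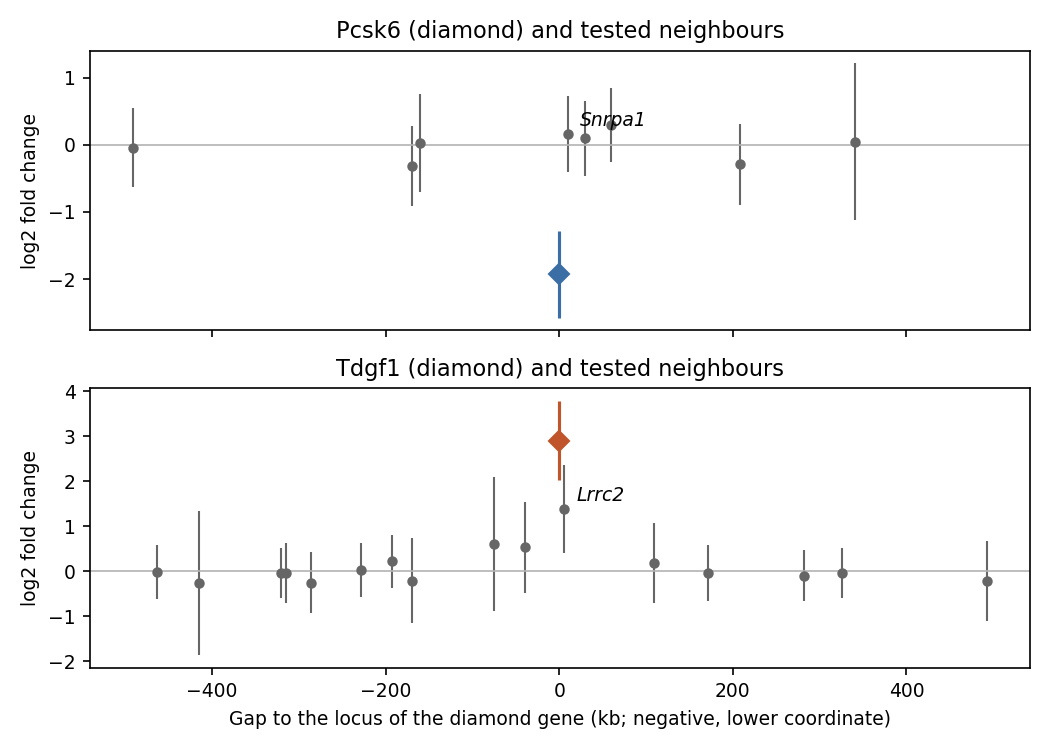
Log2 fold change (mutant over control, with 95% intervals) of tested entries within 500 kb of Pcsk6 (upper panel) and Tdgf1 (lower panel), against the gap to that gene in kb. Pcsk6 lies at -1.93 with neighbours between -0.31 and 0.29, and Tdgf1 at 2.90 with neighbours between -0.27 and 1.38, the highest of them Lrrc2.

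Other genes were taken from 9 lists, called pathway lists here, with 68 genes, of which 60 were tested. They cover Nodal signalling, related ligands and receptors, and convertases. Not all are Nodal pathway genes, and 20 were listed as convertase substrates. None was called higher and 1 was called lower, Ntn1. The median log2 fold change was -0.03, beside -0.02 over all tested entries, and 47 of the 60 (78.3%) lay within 0.5 of 0, against 88.6% of all tested entries with a finite fold. An unadjusted p under 0.05 was found for 6 of the 60 (10.0%), of which 3 were higher and 3 lower, against 3.17% of all tested entries. Of these 6, 3 were on the list of convertase substrates: Corin, Nppa and Ntn1. Over the 60 genes, log2 fold changes ranged from -1.42 to 1.66.

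Among the ligands related to Nodal, 0 of 6 tested genes passed. Tgfb3, which signals through the same SMAD2 and SMAD3, was listed in the authors' deposited table at 4.21 FPKM for controls and 9.04 FPKM for mutants (log2 1.10, unadjusted p = 0.000346, q = 0.0719), just outside the threshold. Inhbb, an activin subunit, stood at 0.232 and 0.106 FPKM for controls and mutants in the authors' deposited table (log2 -1.12, unadjusted p = 0.0476, q = 1.00). Gdf1, a partner of Nodal, was marked as failed and Gdf3 as too low.

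None of the tested receptors and intracellular effectors passed the threshold. Of 6 tested receptors 0 passed, with a median of -0.06, and the highest were Tgfbr1 at 15.9 and 17.0 FPKM and Acvr1b, the type I receptor of Nodal, at 7.92 and 6.96 FPKM for controls and mutants in the authors' deposited table. Of 10 tested SMAD effectors 0 passed, with a median of 0.00 and a range from -0.19 to 0.52. Drap1, a corepressor that limits FOXH1, stood at 112 FPKM in both genotypes and the common Smad4 at 26.1 and 22.9 FPKM for controls and mutants in the authors' deposited table. Not all members were well expressed: the receptor Acvr1c stood at 0.188 and 0.108 FPKM and the effector Eomes at 0.103 and 0.127 FPKM in that table, and Mixl1 was marked as too low for a test.

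Of 4 tested antagonists 0 passed, and the 2 most abundant, Nomo1 and Smad7, stood at 34.0 and 32.0 FPKM and at 8.95 and 9.99 FPKM for controls and mutants in the authors' deposited table. Of 4 tested left-right targets 0 passed. Pitx1, a homeobox gene of the first pharyngeal arch and hindlimb, stood at 0.242 and 0.767 FPKM for controls and mutants in the authors' deposited table (log2 1.66, unadjusted p = 0.00422, q = 0.357). Of 6 tested partners of Cripto 0 passed. The chaperone Hspa5, which binds Cripto at the cell surface, stood at 562 and 537 FPKM and glypican Gpc1 at 23.7 and 18.8 FPKM for controls and mutants in the authors' deposited table.

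Further convertases were low or did not pass. Mbtps1, the site-1 protease, stood at 35.8 and 31.8 FPKM for controls and mutants in the authors' deposited table. Pcsk1 and Pcsk2, the convertases of neuroendocrine granules, were marked as too low for a test, and Pcsk4 was marked as holding more fragments than the authors' tool would use, with its level left at 0. Pcsk1n and Scg5, which bind the neuroendocrine convertases, were under 0.5 FPKM in both genotypes, and 0 of these 2 passed.

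In the list drawn up for convertase substrates of the heart, 0 of 20 tested genes were called higher and 1 was called lower. That gene was Ntn1, the guidance cue netrin-1, at 15.1 and 5.67 FPKM for controls and mutants in the authors' deposited table (log2 -1.42, q = 0.000425). Ntn1 is not an established convertase substrate, and without it 0 of 19 passed. Of these 19, 2 had an unadjusted p under 0.05, Corin and Nppa. Nppa was listed although corin cuts it, which is not a proprotein convertase. Corin, which Pcsk6 activates, was listed in the authors' deposited table at 8.06 FPKM for controls and 12.4 FPKM for mutants (log2 0.62, unadjusted p = 0.0246, q = 1.00). Nppa, the natriuretic peptide precursor that corin cuts, stood at 1755 and 888 FPKM for controls and mutants in the authors' deposited table (log2 -0.98, unadjusted p = 0.0123, q = 0.746). Without Ntn1 the list had a median of -0.02.

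Genes with the most similar pair of levels were named by the distance in log2 FPKM over the 2 pooled values, which is a match of level and fold only. Nearest to Pcsk6 were the microRNA entry Mir374b (distance 0.288, with an SE of 15.5), the platelet chemokine gene Ppbp (0.298) and the neuropeptide gene Gal (0.344). None of these 3 passed the authors' threshold. Nearest to Tdgf1 were the laminin receptor gene Itga7 (distance 0.555), the epithelial adhesion gene Epcam (0.623) and the enteric smooth muscle actin Actg2 (0.629). Epcam stood at 0.971 and 4.42 FPKM and Itga7 at 0.684 and 5.21 FPKM for controls and mutants in the authors' deposited table, and all 3 passed.

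**Figure D4:**
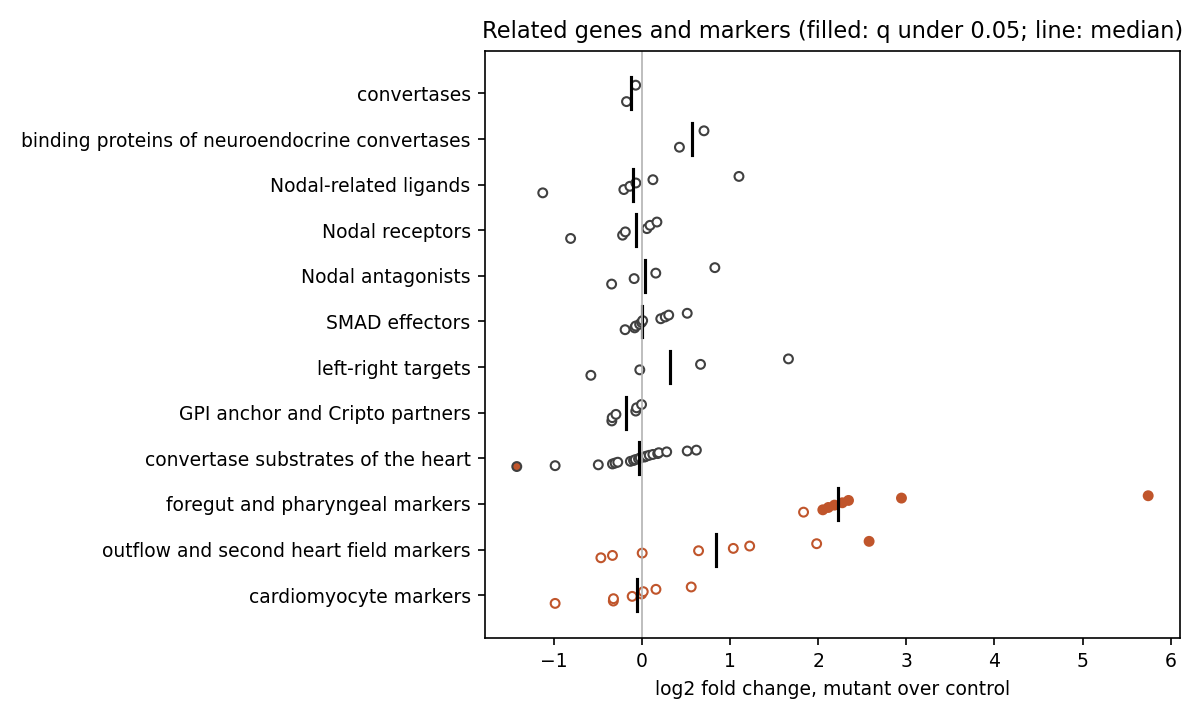
Log2 fold change (mutant over control) of tested genes of 9 pathway lists and 3 marker lists, 1 point a gene, filled where q was under 0.05, with a line at each median. The medians of the pathway lists run from -0.18 to 0.57 and 1 of their points is filled, Ntn1, while 7 of 8 foregut and pharyngeal markers are filled and lie above 2.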

How the data were processed

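Total RNA from 6 individually harvested hearts was sequenced, and the labels give 3 hearts per genotype as biological replicates. Per the submitters' processing notes, the tools were Bowtie2 2.1.0.0 with TopHat2 2.0.8, Cuffdiff with Cufflinks 2.1.1, FastQC 0.10.1 and SAMtools 0.1.19.0, on build mm10. FPKM values were computed by the authors and deposited as 1 pooled value per genotype, with library scaling not given in the sources used here. The authors deposited a p-value and a q-value with each entry. Log2 fold changes and test statistics were likewise deposited by the authors, and infinite folds are written there as a placeholder. Library depth is unknown, so no counting interval is given.

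Entries were named through RefSeq and GENCODE tables of the same assembly (23125 of 23290, or 99.3%). Fold changes were recomputed from FPKM with no pseudocount. The deposited p matched the normal tail of the test statistic, from which the SE was taken. Calls are the authors' q under 0.05. The genes and lists were chosen with earlier results of these data known. Named were all 9 genes, the altered loci, the members of each pathway list with an unadjusted p under 0.05 or else the 2 most abundant, the overlapping and nearest tested neighbours (single ones only at Pcsk6, Tdgf1 and Pcsk7), and the 3 entries closest in level to Pcsk6 and to Tdgf1. Values of some genes taken by this rule are left out of the text. Other genes were named after their values were seen. Motifs were chosen after the data had been seen. The adjustment and SE steps were tested on simulated data. Alternatives covered the q threshold, a filter at 1 FPKM, pseudocounts and centring. Python 3.11.15, numpy 2.4.6, pandas 2.3.3, scipy 1.17.1 and matplotlib 3.10.9 were used.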

Additional observations from a re-analysis of the deposited data

How the results depend on the processing

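Of 42 values recomputed under an alternative, 39 stayed close to the reported one: counts within 1.5 times, tested fold changes on the same side of the threshold, and pseudocount values within 1 SE. Under a pseudocount of 1 FPKM, Pcsk6 had a log2 fold change of -1.55 and Tdgf1 one of 2.03, both closer to 0 because the constant weighs more on low levels. With q under 0.1 the pathway lists held 2 called genes, Ntn1 and Tgfb3, in place of 1. Pcsk6 and Tdgf1 remained the 2 called genes of the 9 at q under 0.1 and under 0.01, after adjustment over the 12224 tested entries with at least 1 FPKM (12150 with a finite fold and 74 at 0 in 1 genotype), and after centring. No other entry existed for any of the 9 genes. No paired analysis was possible because the table holds 1 pooled value per genotype, and leaving out single hearts was not run for the same reason. Depth is unknown, and the smallest called change among all entries was 2.29-fold.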
